A study of Mus musculus with 24 samples.

Results

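Cytochrome P450 genes were examined in carotid arteries of mice treated with vehicle, estradiol (E2), estetrol (E4) or tamoxifen. Members were all protein-coding genes of the deposited tables whose symbol in GENCODE mouse release M21 is Cyp followed by a number, a letter and optionally a further number, together with Cyp51. This rule gave 94 genes among the 55421 rows of each table. Another 37 Cyp symbols, mostly pseudogenes, were outside it.

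RNA sequencing was available for 24 uninjured carotid arteries of wild type C57BL/6 mice aged 9 weeks, with 6 libraries in each of the 4 groups and a separate animal number for each library. The vehicle group carries the title OVX, for ovariectomized, and the study's methods describe ovariectomy followed by pellet implantation for the vehicle, E2 and E4 mice, so that loss of the ovaries is common to these 3 groups. The tamoxifen libraries are titled TAM and are not described in those methods. The E4 libraries were assigned from their titles, since their treatment label reads Placebo. The series' design text gives 3 weeks of estradiol or tamoxifen, a longer time than the study's methods give for the pellets. E2 is the main ovarian estrogen, E4 is a natural estrogen of fetal liver, and tamoxifen is a selective estrogen receptor modulator. The methods give different doses for E2 and E4, and a dose for the tamoxifen libraries was not given in the sources used here, so comparisons between compounds are comparisons of these treated groups. Libraries held 24647246 to 64221401 counts (median 45156106).

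P450 enzymes are heme proteins that insert an oxygen atom into lipids, steroids, drugs and other small molecules, using electrons that NADPH-P450 reductase passes on in the endoplasmic reticulum and ferredoxin in mitochondria. Some families make or degrade defined molecules, such as cholesterol, bile acids, retinoic acid, vitamin D and steroid hormones, while others oxidize many foreign compounds or fatty acids. In arteries P450 enzymes are best known for forming vasoactive epoxides and hydroxy acids from arachidonic acid. Estrogens are themselves P450 substrates, and aromatase, which makes them, is a P450.

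The 4 members with the largest called differences from vehicle were Cyp2f2, Cyp2b10, Cyp1a1 and Cyp2e1, and the 250 bases before the RefSeq start of each are printed to show what these promoters hold (build GRCm38.p6, plus strand for each). Cyp2e1 lies at chr7:140763569-140763818, Cyp2f2 at chr7:27119705-27119954, Cyp2b10 at chr7:25897408-25897657 and Cyp1a1 at chr9:57697363-57697612 in this window. Capitals mark, on either strand, the TATA box TATAAA, the core GCGTG of the xenobiotic response element bound by the aryl hydrocarbon receptor (AhR) and the half-site GGTCA of the estrogen response element.
Cyp2f2: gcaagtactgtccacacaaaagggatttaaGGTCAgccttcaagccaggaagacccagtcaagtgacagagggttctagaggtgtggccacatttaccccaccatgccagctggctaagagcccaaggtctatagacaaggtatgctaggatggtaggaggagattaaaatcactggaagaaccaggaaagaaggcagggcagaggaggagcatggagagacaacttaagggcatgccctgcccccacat
Cyp2b10: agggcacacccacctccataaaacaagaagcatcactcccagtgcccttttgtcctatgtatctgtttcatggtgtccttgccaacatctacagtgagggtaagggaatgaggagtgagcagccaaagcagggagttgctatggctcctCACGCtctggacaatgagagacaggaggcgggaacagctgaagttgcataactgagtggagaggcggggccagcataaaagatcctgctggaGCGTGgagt
Cyp1a1: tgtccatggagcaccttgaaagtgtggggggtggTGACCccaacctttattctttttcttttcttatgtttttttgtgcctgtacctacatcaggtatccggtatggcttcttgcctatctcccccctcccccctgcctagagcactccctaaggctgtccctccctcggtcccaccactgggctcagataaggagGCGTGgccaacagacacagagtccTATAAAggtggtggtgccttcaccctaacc
Cyp2e1: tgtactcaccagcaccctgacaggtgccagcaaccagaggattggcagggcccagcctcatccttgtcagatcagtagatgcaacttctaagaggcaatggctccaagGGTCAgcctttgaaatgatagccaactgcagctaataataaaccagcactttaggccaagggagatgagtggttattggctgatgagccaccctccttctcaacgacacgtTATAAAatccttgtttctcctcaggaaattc
Cyp1a1 held TATAAA 30 bases before the start, GCGTG 54 bases before it and GGTCA on the opposite strand 216 bases before it. Cyp2e1 held TATAAA 31 bases and GGTCA 142 bases before the start. Cyp2b10 held GCGTG on both strands, 101 and 9 bases before the start, and Cyp2f2 held a single GGTCA 220 bases before it. Such short motifs are common: of 32536 mouse promoters of this length, 12.3% held TATAAA, 28.3% held GCGTG and 35.3% held GGTCA. The full palindrome GGTCANNNTGACC, which contains the half-site on both strands, occurred in 0.0645% of all promoters and in 0 of the 83 promoters of the 73 members matched to RefSeq, and the GC box GGGCGG, in 33% of all promoters, occurred in none of those printed. A match is a description of the letters in this window.

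Expression is given as CPM, the usual count unit scaled to equal library totals, here with edgeR's TMM factors, and differences as log2 fold changes of edgeR's quasi-likelihood test with standard error (SE) and Benjamini-Hochberg adjusted p (edgeR adjusted p below). Of the 94 members, 78 had at least 1 count in some library, and 33 did not exceed 3 counts in any library, the floor taken as detectable, which equals 0.0452 to 0.121 CPM depending on the library. edgeR's filter on low counts left 37 members in the fit of vehicle, E2 and E4 and 39 in the fit of all 24 libraries, and 55 members were tested in neither. Per kilobase of exon, Cyp2e1 had the highest mean level, 109.9 CPM per kb, followed by Cyp27a1 (22.3), Cyp51 (20.5), Cyp2d22 (20.3), Cyp2j6 (17.1) and Cyp1b1 (17.1). Cyp20a1, Cyp2j12, Cyp2j9 and Cyp4v3 completed the 10 highest, with 12.9, 12.03, 10.9 and 8.52 CPM per kb. Cyp20a1, an orphan P450 with no assigned substrate, was at 24.95 to 33.3 CPM over the 24 libraries, with log2 differences of -0.07 to 0.07 between groups that did not pass.

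**Figure D1:**
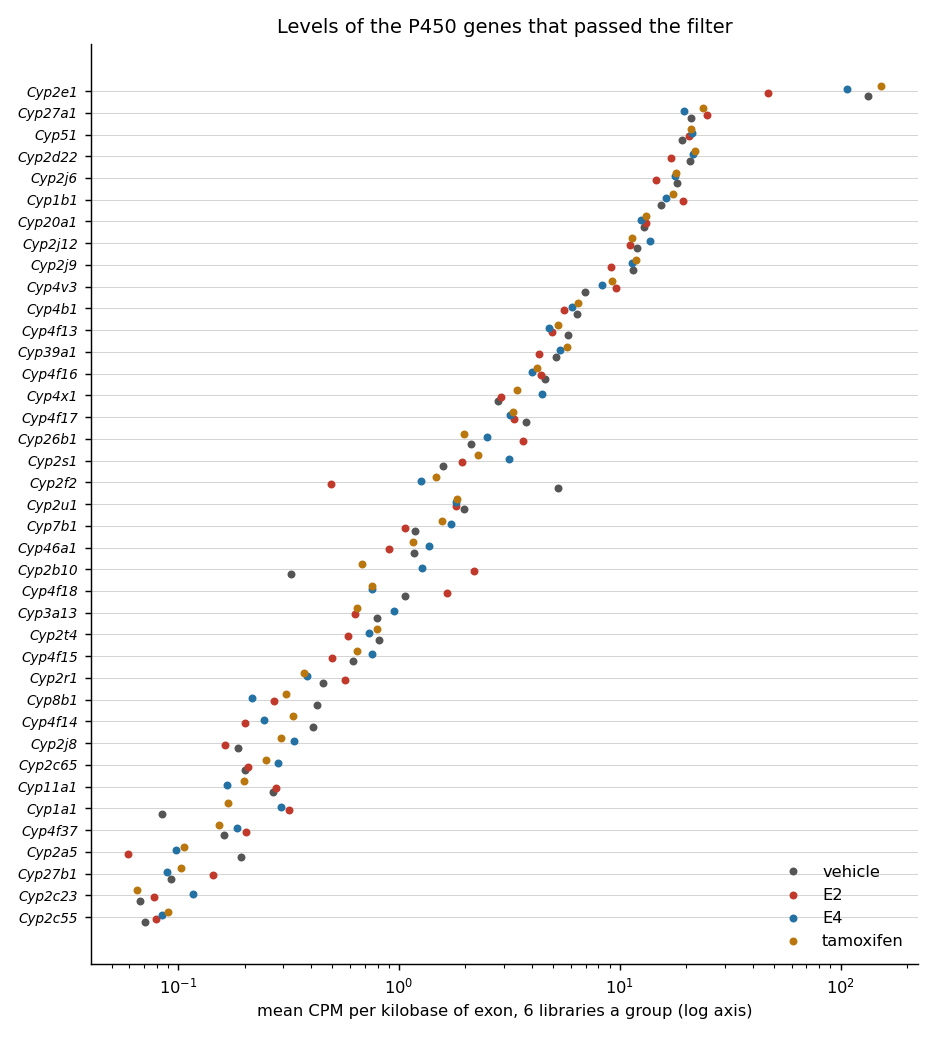
Mean level of each of the 39 P450 genes tested over all 24 libraries, as CPM per kilobase of exon on a log axis, 1 point per group of 6 libraries. Cyp2e1 stood above all others, and the vehicle point of Cyp2f2 lay above its treated points while that of Cyp2b10 lay below them.

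Summed over all members, P450 transcripts amounted to 816 to 1012 CPM with vehicle (median 939), 684 to 780 CPM with E2 (median 760), 788 to 1078 CPM with E4 (median 868) and 843 to 1193 CPM with tamoxifen (median 966). The E2 libraries lay below every vehicle library in this sum, while those of E4 and tamoxifen overlapped vehicle. Cyp2e1, Cyp1b1 and Cyp51 together carried 47.9% of the sum, and the Cyp2 family 52.7%. The Cyp2 family summed to 413 to 618.5 CPM with vehicle and 274 to 326 CPM with E2. This sum includes Cyp2e1, whose own fall with E2 is given below. The median sums of the Cyp1 and Cyp4 families, 91.1 and 108 CPM with vehicle, were not lower with E2 (110 and 112 CPM).

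**Figure D2:**
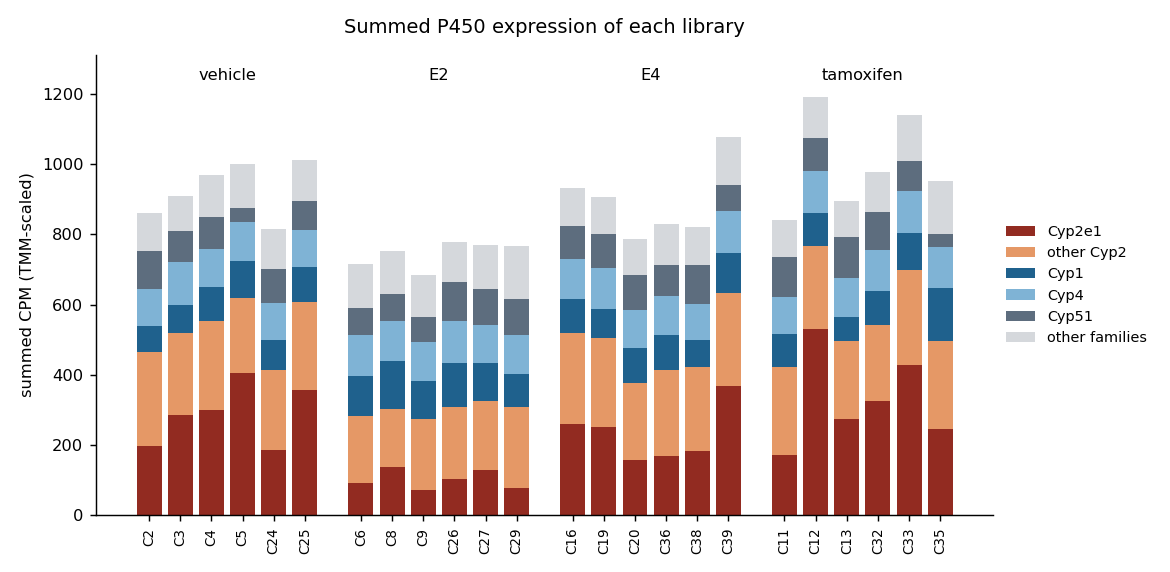
Summed CPM of all P450 genes in each of the 24 libraries, stacked by Cyp2e1, the other Cyp2 genes, the Cyp1 and Cyp4 families, Cyp51 and all other families. The 6 E2 libraries, at 684 to 780 CPM, had the lowest sums and the smallest Cyp2e1 segments.

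As compared with vehicle, E2 raised Cyp2b10 and Cyp1a1 and lowered Cyp2f2 and Cyp2e1. These 4 of the 37 members tested (10.8%) were called, that is, had an edgeR adjusted p under 0.05 with more than a 2-fold difference (beyond 1 on the log2 scale), against 1.22% of all 24669 genes tested. At any fold change 5 members passed, Cyp4v3 (higher) in addition, where 3.88% of all genes did. With E4, 3 of 37 members were called, Cyp2b10 and Cyp1a1 higher and Cyp2f2 lower, against 2.5% of all genes. At any fold change 6 members passed, with Cyp2s1 and Cyp4v3 higher and Cyp8b1 lower, where 21.7% of all genes did. With tamoxifen, Cyp2f2 alone was called among the 39 members tested, and it was lower, against 0.315% of all 25056 genes. At any fold change 2 members passed, Cyp2f2 and, higher, Cyp4v3, where 2.23% of all genes did. The median log2 fold change of the tested members was -0.11 with E2, 0.05 with E4 and 0.02 with tamoxifen, beside 0.01, -0.01 and 0.00 over all genes tested. The 3 comparisons share the vehicle libraries, and those between treated groups share treated libraries.

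Between the treated groups, E4 against E2 called 3 of 37 members, Cyp2e1 and Cyp2f2 higher and Cyp4f18 lower, against 2.26% of all genes, and 5 at any fold change, where 10.9% of all genes passed. Tamoxifen against E2 called 4 of 39 members, Cyp2e1 and Cyp2f2 higher and Cyp2b10 and Cyp4f18 lower, against 1.65% of all genes, and 6 at any fold change, where 6.4% of all genes passed. Tamoxifen against E4 called 0 of 39 members by edgeR after Benjamini-Hochberg adjustment and 0 by DESeq2, where 0.2% of all genes were called and 0.343% passed at any fold change. In that comparison 4 members had an unadjusted p under 0.05, as did 9.12% of all genes, a share near that of the members.

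**Figure D3:**
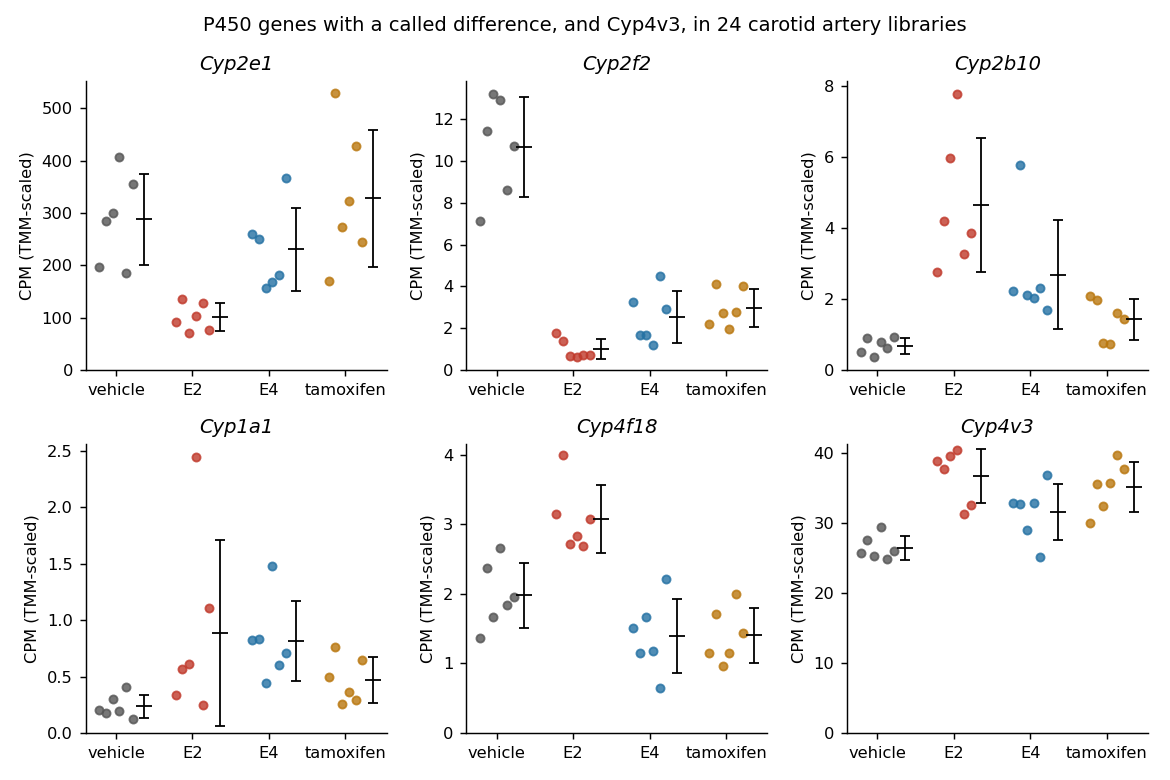
CPM of 6 P450 genes in each library (points) with mean ± SD beside them, by treatment, 6 libraries a group. Cyp2f2 was lower in all treated groups than in vehicle, Cyp2b10 was higher with E2 and E4, and Cyp2e1 was lower in the E2 group, with no overlap with the other groups.

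Among the P450 genes that oxidize foreign compounds, Cyp2f2 had the largest fitted difference. The gene (chr7:27119909-27133660, plus strand, GRCm38) encodes an enzyme best known from airway club cells, where it oxidizes naphthalene. Its level was 7.11 to 13.2 CPM in vehicle libraries (median 11.1), 0.654 to 1.79 CPM in E2 libraries (median 0.726), 1.22 to 4.48 CPM in E4 libraries (median 2.31) and 1.957 to 4.12 CPM in tamoxifen libraries (median 2.76). Every treated library lay below every vehicle library, and only the E2 and E4 ranges and the E4 and tamoxifen ranges overlapped. The gene was 10.6-fold lower with E2 (log2 fold change -3.41, SE 0.33, edgeR adjusted p = 2.15e-06), 4.23-fold lower with E4 (-2.08, SE 0.31, edgeR adjusted p = 0.000784) and 3.59-fold lower with tamoxifen (-1.84, SE 0.29, edgeR adjusted p = 0.00391). It was higher with E4 than with E2 by 1.33 (SE 0.32, edgeR adjusted p = 0.0162) and with tamoxifen than with E2 by 1.57 (SE 0.31, edgeR adjusted p = 0.00252).

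Animal numbers fell into separate series in every group, up to 20 and from 24 on, and the labels do not say whether these are batches. Within the first series Cyp2f2 differed from vehicle by -3.11 with E2, -2.33 with E4 and -1.89 with tamoxifen, and within the second series by -3.79, -1.78 and -1.72. The call held within both series with E2, within the first alone with E4, and within neither with tamoxifen, at 2 to 4 libraries a group. Of all genes, 1 of 25474 and 0 of 25513 passed with tamoxifen against vehicle in the first and second series. For E4 against E2, 0 of 25066 passed in the second, so losses in these fits are not particular to Cyp2f2. The difference of E4 from E2 was 0.77 and 2.01 in the series (edgeR adjusted p = 0.225 and 0.108) and that of tamoxifen from E2 1.21 and 2.07 (edgeR adjusted p = 0.0889 and 0.0883), so these calls held within neither. Exons of Cyp2f2 share 13.5% of their bases with the antisense gene Gm15883, 50% of its values carried decimals as deposited, and the strand setting of the counting was not given in the sources used here. Markers of airway epithelium were scarce, with a summed 5-gene level of 3.08 to 15.2 CPM in vehicle libraries, 2.18 to 5.48 with E2, 3.51 to 6.98 with E4 and 3.57 to 6.02 with tamoxifen, and all groups overlapped. Scgb1a1, the club cell secretoglobin, was at 0.234 to 8.97 CPM with vehicle and 0.0851 to 1.88 CPM over the treated groups, and was lower with E4 (log2 fold change -3.14, edgeR adjusted p = 0.0141). The part of such cells in the Cyp2f2 difference was not tested. In bulk arteries, fewer cells of a type and less RNA per cell cannot be told apart.

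Cyp2b10 (chr7:25897620-25926624, plus strand), the classical target gene of the constitutive androstane receptor in liver, moved the other way. It was at 0.362 to 0.934 CPM with vehicle (median 0.701, at 24 to 44 counts), 2.75 to 7.76 CPM with E2 (median 4.02), 1.68 to 5.78 CPM with E4 (median 2.17) and 0.745 to 2.10 CPM with tamoxifen (median 1.52). All E2 and E4 libraries lay above all vehicle libraries, whereas tamoxifen overlapped vehicle. The rise was 6.80-fold with E2 (log2 fold change 2.77, SE 0.34, edgeR adjusted p = 5.35e-05) and 3.96-fold with E4 (1.98, SE 0.34, edgeR adjusted p = 0.00179). With tamoxifen the difference was 1.08 (SE 0.35, edgeR adjusted p = 0.0859), which did not pass, and DESeq2 called it with a log2 fold change of 1.08 (DESeq2 adjusted p = 0.0338). Tamoxifen libraries were lower than E2 libraries by -1.69 on the log2 scale (SE 0.33, edgeR adjusted p = 0.00242), and E4 and E2 differed by -0.78 (95% interval -1.39 to -0.17, edgeR adjusted p = 0.104), or by -1.16 (edgeR adjusted p = 0.0193) without E4 C19. Within the first and second number series the E2 difference was 2.76 and 2.68 and that of E4 2.41 and 1.37, the last with an edgeR adjusted p of 0.122. That of tamoxifen from E2 was -1.43 and -1.96 (edgeR adjusted p = 0.101 and 0.0652). Nr1i3, which encodes the constitutive androstane receptor, was at 12.8 to 18.9 CPM over all libraries and passed in no comparison. The related pregnane X receptor, Nr1i2, reached at most 0.0469 CPM.

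Cyp2e1 (chr7:140763739-140774987, plus strand), which oxidizes ethanol, acetone and other small molecules and had the highest level of all members, was lowered in the E2 group. It was at 186 to 406 CPM with vehicle (median 293), 71.2 to 137 CPM with E2 (median 97.1), 158 to 368 CPM with E4 (median 217) and 170 to 529 CPM with tamoxifen (median 299). The E2 libraries lay below all libraries of the other 3 groups, which overlapped one another. As compared with vehicle, E2 lowered it 2.85-fold (log2 fold change -1.51, SE 0.24, edgeR adjusted p = 0.000714). The difference was -0.32 with E4 (SE 0.23, edgeR adjusted p = 0.328) and 0.19 with tamoxifen (SE 0.26, edgeR adjusted p = 0.721). Cyp2e1 was 2.28-fold higher with E4 than with E2 (log2 fold change 1.19, SE 0.24, edgeR adjusted p = 0.00505) and 3.25-fold higher with tamoxifen than with E2 (1.70, SE 0.27, edgeR adjusted p = 0.000256). Within the number series the E2 difference from vehicle was -1.57 and -1.42, with edgeR adjusted p of 0.0545 and 0.109. E4 exceeded E2 by 1.16 and 1.24 (edgeR adjusted p = 0.0641 and 0.204) and tamoxifen exceeded E2 by 1.69 and 1.71 (edgeR adjusted p = 0.0403 and 0.0957). White adipocyte markers summed to 948 to 1944 CPM with vehicle and 919 to 1415 CPM with E2 over 5 genes, of which Retn passed as lower, and those of hepatocytes to at most 3.74 CPM in any library. Brown adipocyte markers summed to 811 to 2253 CPM with vehicle and 597 to 1460 CPM with E2 over 4 genes, of which Cidea passed as lower. They summed to 526 to 840 CPM with E4, where all 4 passed as lower, and 672 to 1118 CPM with tamoxifen. The part of adipocytes in the Cyp2e1 difference was not tested.

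Cyp1a1 (chr9:57687928-57703824, plus strand), the classical AhR target gene, was detected at low levels. Its level was 0.127 to 0.408 CPM with vehicle (median 0.202, 6 to 22 counts), 0.252 to 2.45 CPM with E2 (median 0.588), 0.445 to 1.48 CPM with E4 (median 0.764) and 0.256 to 0.758 CPM with tamoxifen (median 0.430). All E4 libraries lay above all vehicle libraries, and the E2 and tamoxifen ranges overlapped that of vehicle. The log2 fold change was 1.87 with E2 (SE 0.49, edgeR adjusted p = 0.0362) and 1.76 with E4 (SE 0.49, edgeR adjusted p = 0.0195), and 0.95 with tamoxifen (SE 0.48, edgeR adjusted p = 0.256). The E2 call was lost when vehicle C2, C3, C4 or C25 or E2 C26 or C29 was left out (edgeR adjusted p up to 0.114), the number series entered the fit (edgeR adjusted p = 0.0589) or vehicle and E2 alone were fitted (edgeR adjusted p = 0.089). Without E2 C26 the difference was 1.24 in place of 1.87. The E4 call was lost without E4 C36 (edgeR adjusted p = 0.0504). Within the first and second number series the differences were 1.15 and 2.20 with E2 and 1.62 and 1.80 with E4, of which the 1.62 passed. Cyp1a2, a further AhR target of the same family, had at most 2 counts in a library and was not tested.

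Cyp1b1, which hydroxylates estradiol and polycyclic hydrocarbons, was at 75.0 to 104 CPM with vehicle (median 90.7), 92.6 to 137 CPM with E2 (median 110), 76.5 to 116 CPM with E4 (median 97.5) and 69.7 to 151 CPM with tamoxifen (median 95.1). All groups overlapped, and the log2 differences from vehicle of 0.33, 0.08 and 0.17 (SE 0.11, 0.11 and 0.14) did not pass, with edgeR adjusted p of 0.132, 0.636 and 0.509. Cyp2s1, an AhR-inducible enzyme of epithelia, was at 1.41 to 11.3 CPM with vehicle (median 8.12), 5.55 to 14.5 CPM with E2 (median 9.12), 11.5 to 19.7 CPM with E4 (median 15.3) and 2.00 to 15.7 CPM with tamoxifen (median 12.1). The E4 libraries lay above all vehicle libraries, with a log2 fold change of 0.99 (SE 0.33, edgeR adjusted p = 0.0384). This result was lost when any 1 of 8 libraries was left out, vehicle C3, C4 or C25 or E4 C16, C19, C20, C36 or C38 (edgeR adjusted p up to 0.0833), and the difference was 0.77 (edgeR adjusted p = 0.0171) without vehicle C5, a library low in neuron markers. Cyp2s1 was lowest in vehicle C5 and tamoxifen C35, the 2 libraries lowest in sympathetic neuron markers, as were 15.2% of all genes tested. The 6-gene sum of these markers was 27.2 CPM in vehicle C5 and 2624 to 5694 CPM in the other vehicle libraries. It was 4476 to 7788 CPM with E4, and the part of neurons in the difference was not tested. Cyp3a13, of the drug- and steroid-oxidizing Cyp3a subfamily, was at 1.44 to 2.14 CPM with E2 and 2.17 to 3.54 CPM with E4. These ranges did not overlap, and E4 was higher than E2 by 0.59 (SE 0.17, edgeR adjusted p = 0.0307). That result was lost without E2 C6, C8 or C9 or E4 C16, C19, C38 or C39 (edgeR adjusted p up to 0.0814). Cyp2d22, of the drug-oxidizing Cyp2d subfamily, was at 58.3 to 82.9 CPM with E2 and 66.4 to 97.5 CPM with vehicle and passed in no comparison. For E4 against E2 the difference was 0.33 (edgeR adjusted p = 0.069), and it passed under some alternatives, among them DESeq2 (0.35, adjusted p = 0.0338) and the fits without vehicle C5 (0.33, edgeR adjusted p = 0.0385) or E2 C29 (0.40, edgeR adjusted p = 0.0245).

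**Figure D4:**
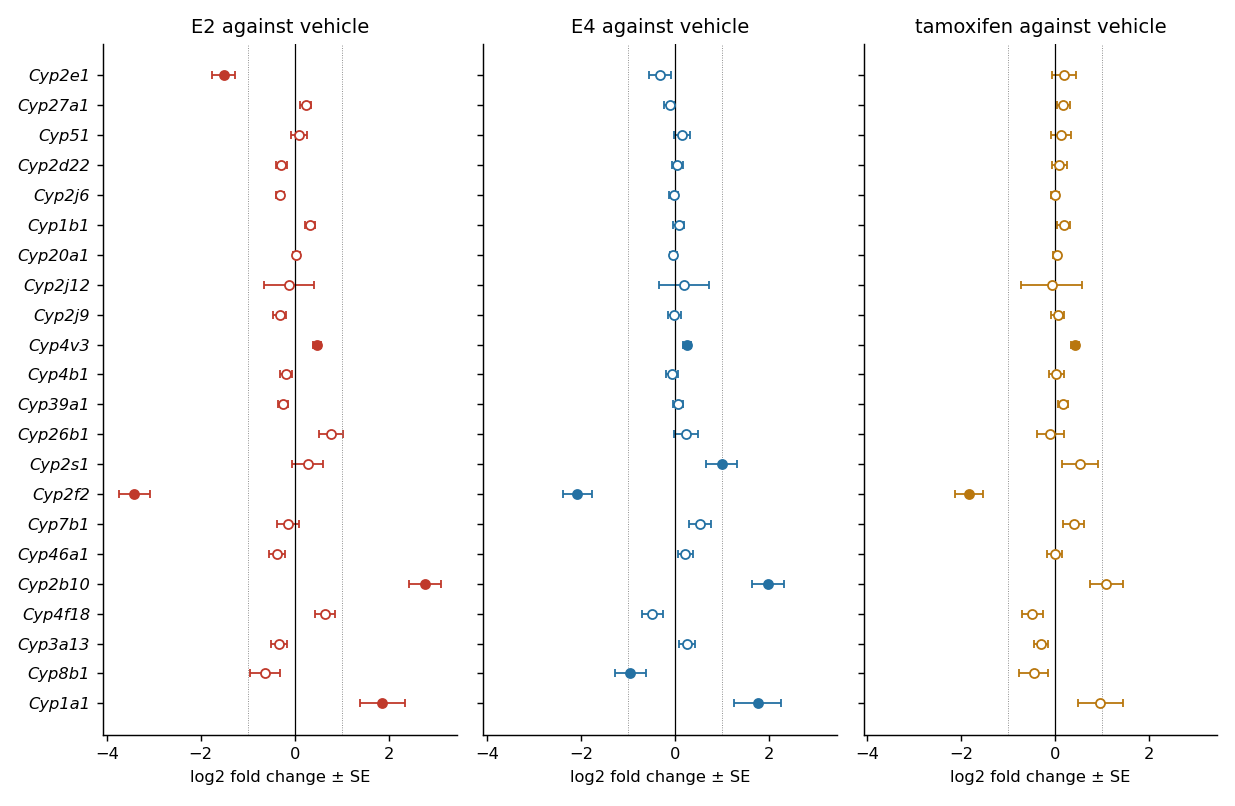
Log2 fold change against vehicle with SE for the 22 named P450 genes that were tested, ordered by level per kilobase of exon, for E2, E4 and tamoxifen. Filled points had an edgeR adjusted p under 0.05, and dotted lines stand at log2 fold changes of -1 and 1. Cyp2f2 lay left of both lines in every panel, while Cyp2b10 and Cyp1a1 lay to the right with E2 and E4.

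Among the P450 genes of fatty acids and eicosanoids, Cyp4f18 separated E2 from the other treatments. The gene (chr8:71988482-72009626, minus strand) encodes an enzyme of myeloid cells that hydroxylates leukotrienes. It was at 1.37 to 2.66 CPM with vehicle (median 1.89), 2.68 to 3.99 CPM with E2 (median 2.95), 0.646 to 2.21 CPM with E4 (median 1.34) and 0.963 to 1.99 CPM with tamoxifen (median 1.30). The E2 libraries lay above all others. E4 was 2.18-fold lower than E2 (log2 fold change -1.13, SE 0.22, edgeR adjusted p = 0.00456) and tamoxifen 2.20-fold lower (-1.13, SE 0.22, edgeR adjusted p = 0.00226). E2 against vehicle gave 0.64 (SE 0.21, edgeR adjusted p = 0.12), and DESeq2 gave an adjusted p of 0.0434. E4 against vehicle gave -0.49 (edgeR adjusted p = 0.117), or -0.66 (edgeR adjusted p = 0.037) without E4 C39. Within the first and second number series, E4 differed from E2 by -1.19 and -1.02 and tamoxifen by -1.38 and -0.89, with an edgeR adjusted p under 0.05 in the first series alone. Macrophage markers moved in the same direction, with a 5-gene sum of 404 to 727 CPM with vehicle, 644 to 1035 CPM with E2, 280 to 513 CPM with E4 and 346 to 525 CPM with tamoxifen. All 5 of them passed the test as higher with E2 than with E4 and than with tamoxifen. Their part in the Cyp4f18 difference was not tested, and 9.8% of the exon bases of Cyp4f18 overlap Zfp961 on the opposite strand.

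Cyp4v3 (chr8:45304944-45333216, minus strand), a fatty acid omega-hydroxylase, was at 24.9 to 29.5 CPM with vehicle (median 25.9), 31.2 to 40.4 CPM with E2 (median 38.2), 25.1 to 36.9 CPM with E4 (median 32.7) and 29.95 to 39.8 CPM with tamoxifen (median 35.6). E2 and tamoxifen libraries lay above all vehicle libraries, and E4 overlapped them. The log2 fold changes were small: 0.47 with E2 (SE 0.09, edgeR adjusted p = 0.00315), 0.25 with E4 (SE 0.09, edgeR adjusted p = 0.0459) and 0.41 with tamoxifen (SE 0.09, edgeR adjusted p = 0.0215). The E4 result was lost without any 1 of 12 libraries, vehicle C2, C3, C4, C24 or C25, E2 C6 or C8, or E4 C16, C19, C20, C36 or C39 (edgeR adjusted p up to 0.098), and that of tamoxifen without vehicle C3 or tamoxifen C33 (up to 0.0576). Within the number series the differences were 0.51 and 0.44 with E2, 0.22 and 0.32 with E4 and 0.26 and 0.58 with tamoxifen. Of these the 0.51 alone passed. With vehicle and tamoxifen alone in the fit, the tamoxifen result did not pass (edgeR adjusted p = 0.0635). Exons of Cyp4v3 share 8.2% of their bases with Gm45753 on the same strand. Cyp4b1, which hydroxylates fatty acids and activates some protoxins, was at 10.5 to 21.6 CPM over the vehicle and tamoxifen libraries and 10.9 to 15.2 CPM over those of E2 and E4, with log2 differences from vehicle of -0.18, -0.07 and 0.02 that did not pass.

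The Cyp2j genes, whose products include epoxygenases of arachidonic acid, were led by Cyp2j6. It was at 55.4 to 76.9 CPM with vehicle (median 64.3), 42.2 to 56.1 CPM with E2 (median 54.8), 54.4 to 72.1 CPM with E4 (median 62.7) and 58.6 to 72.1 CPM with tamoxifen (median 65.0). Tamoxifen libraries lay above all E2 libraries, by 0.30 (SE 0.08, edgeR adjusted p = 0.0321), a result lost without E2 C6 or C8 or tamoxifen C11, C12, C32 or C33 (edgeR adjusted p up to 0.0899). The difference of E2 from vehicle, -0.31 (SE 0.09, edgeR adjusted p = 0.0624), did not pass, and neither did that of E4 from E2 (0.28, edgeR adjusted p = 0.0528). Both passed under some alternatives, among them DESeq2 (adjusted p = 0.028 and 0.0217) and the fit without vehicle C5 (edgeR adjusted p = 0.0234 and 0.0293). Cyp2j9 was at 20.4 to 35.5 CPM with E2 and 26.8 to 48.3 CPM with vehicle, and its difference of -0.32 did not pass (SE 0.14, edgeR adjusted p = 0.246). Of the 4 epoxide hydrolase genes, which act on epoxides that these enzymes form, 0 passed in any of the 6 comparisons (all-gene shares 0.343% to 21.7%), and the medians of the list were -0.01 with E2, 0.16 with E4 and 0.02 with tamoxifen.

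Among the sterol enzymes, Cyp51, the lanosterol demethylase of cholesterol synthesis, was at 41.8 to 109 CPM with vehicle (median 89.9), 73.2 to 112 CPM with E2 (median 89.3), 75.0 to 111 CPM with E4 (median 95.7) and 37.7 to 115 CPM with tamoxifen (median 101.5). The groups overlapped, and the log2 differences from vehicle of 0.09, 0.14 and 0.12 (SE 0.17, 0.17 and 0.21) did not pass. Cyp27a1, the mitochondrial sterol hydroxylase, was at 37.97 to 65.9 CPM with vehicle (median 42.9), 44.1 to 58.7 CPM with E2 (median 56.2), 37.9 to 51.2 CPM with E4 (median 40.2) and 38.1 to 66.9 CPM with tamoxifen (median 50.6), and it passed in no comparison. Without vehicle C5, its highest vehicle library, E2 exceeded vehicle by 0.37 (edgeR adjusted p = 0.0193) in place of 0.24. E4 was below E2 by -0.35 (edgeR adjusted p = 0.0651), with an edgeR adjusted p of 0.0127, 0.0477 and 0.0407 without vehicle C5, E2 C26 and E4 C39 and of 0.0217 with only these groups in the fit.

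Cyp39a1 and Cyp7b1 hydroxylate oxysterols on the way to bile acids. Cyp39a1 was at 10.4 to 14.7 CPM with E2 and 14.7 to 20.99 CPM with tamoxifen, higher by 0.42 (SE 0.11, edgeR adjusted p = 0.0222), a result lost without E2 C6 or C8 or tamoxifen C33 (edgeR adjusted p up to 0.0657). Cyp7b1 was at 1.68 to 3.52 CPM with vehicle and 2.81 to 4.92 CPM with E4 and did not pass (log2 fold change 0.54, SE 0.24, edgeR adjusted p = 0.107, or 0.0451 without E2 C8). E4 exceeded E2 in Cyp7b1 by 0.68 (edgeR adjusted p = 0.068), which passed under some alternatives, among them DESeq2 (adjusted p = 0.0303) and the fit without vehicle C5 (edgeR adjusted p = 0.0433). Cyp46a1, the cholesterol hydroxylase of neurons, was at 2.36 to 3.74 CPM with E2 and 4.02 to 5.49 CPM with E4. These did not overlap, and the difference was 0.59 (SE 0.16, edgeR adjusted p = 0.0287), lost without E2 C6, C8 or C9 or E4 C19, C20 or C38 (edgeR adjusted p up to 0.0706). Sympathetic neuron markers summed to 2038 to 5575 CPM with E2 and 4476 to 7788 CPM with E4, and their part in this difference was not tested. Cyp8b1, which sets the composition of bile acids in liver, was at 0.450 to 1.34 CPM with vehicle and 0.165 to 0.706 CPM with E4 (6 to 29 counts), with a log2 fold change of -0.96 (SE 0.33, edgeR adjusted p = 0.0452). The result was lost when any 1 of 12 libraries was left out, among them vehicle C5, without which it was -0.77 (edgeR adjusted p = 0.101). The other 11 were vehicle C3, C24 and C25, E2 C6, C8, C26 and C27, and E4 C16, C19, C20 and C38. Cyp7a1, the rate-limiting enzyme of bile acid synthesis, had 0 counts in every library, which allows at most 3 counts.

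Enzymes of retinoic acid and of vitamin D were at moderate or low levels. Cyp26b1, which degrades retinoic acid, was at 6.79 to 15.0 CPM with vehicle (median 11.3), 11.8 to 39.8 CPM with E2 (median 16.3), 10.3 to 19.1 CPM with E4 (median 12.8) and 6.80 to 20.1 CPM with tamoxifen (median 8.71). The ranges overlapped, and the difference of E2 from vehicle, 0.78 (SE 0.26, edgeR adjusted p = 0.11), and that of tamoxifen from E2, -0.89 (SE 0.28, edgeR adjusted p = 0.0605), did not pass. DESeq2 gave adjusted p of 0.0445 and 0.0309 for them. The latter also passed with the number series in the fit (edgeR adjusted p = 0.0378) and without vehicle C5, E2 C9 or tamoxifen C35 (edgeR adjusted p = 0.0457, 0.0496 and 0.00788). Of the 3 vitamin D enzymes, Cyp2r1 and Cyp27b1 were tested and 0 passed in any comparison (all-gene shares 0.343% to 21.7%). The 6 enzymes of steroid hormone synthesis summed to at most 2.06 CPM in any library, and only Cyp11a1 was tested among them. Cyp19a1, aromatase, had 0 counts in 23 libraries and 1 count in tamoxifen C12, so its level lay under the floor in every group.

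Several P450 genes were at or near 0, or low, in 2 libraries, vehicle C5 and tamoxifen C35, in which the 6 sympathetic neuron markers summed to 27.2 and 187 CPM, against 2038 to 7788 CPM in the other 22 libraries. Cyp2j12 had 3 and 9 counts in these libraries (0.0659 and 0.209 CPM) and 16.2 to 33.2 CPM in all others. Members that lay below all other libraries in both were, besides Cyp2j12, Cyp2s1 and Cyp51, also Cyp4x1, Cyp2c65, Cyp4f15 and Cyp4f16, the last 4 picked out after their values were seen. These are 7 of the 39 members tested (17.9%), near the 15.2% of all genes tested that lay below all other libraries in both. Cyp27a1, Cyp4b1 and, named after its values were seen, Cyp4f17 lay above all other libraries in both (7.69% of members and 3.32% of all genes), with Cyp27a1 at 65.9 and 66.9 CPM against at most 59.9 CPM, Cyp4b1 at 21.3 and 21.6 CPM against at most 15.2 CPM, and Cyp4f17 at 13.6 and 13.9 CPM against at most 13.5 CPM. Cyp4x1, a P450 of unknown physiological substrate known from brain, was at 0.0439 and 0.812 CPM against 7.16 to 24.4 CPM. Cyp2c65 had 0 counts in both libraries against 0.218 to 0.727 CPM elsewhere. Cyp51 was at 41.8 and 37.7 CPM against 73.2 to 115 CPM. These values are a description of 24 arteries, since the libraries were set apart by marker levels and not by treatment. Without them, which in the E2 and E4 comparisons removes vehicle C5 alone, the number of called members stayed at 4 with E2, 3 with E4 and 1 with tamoxifen against vehicle, and the number with an edgeR adjusted p under 0.05 at any fold change went from 5 to 9 with E2 and from 5 to 12 for E4 against E2. Among all genes that share went from 3.88% to 5.21% with E2 and from 10.9% to 21.5% for E4 against E2 in the same fits. In all 24 libraries Cyp2j12 passed in no comparison.

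**Figure D5:**
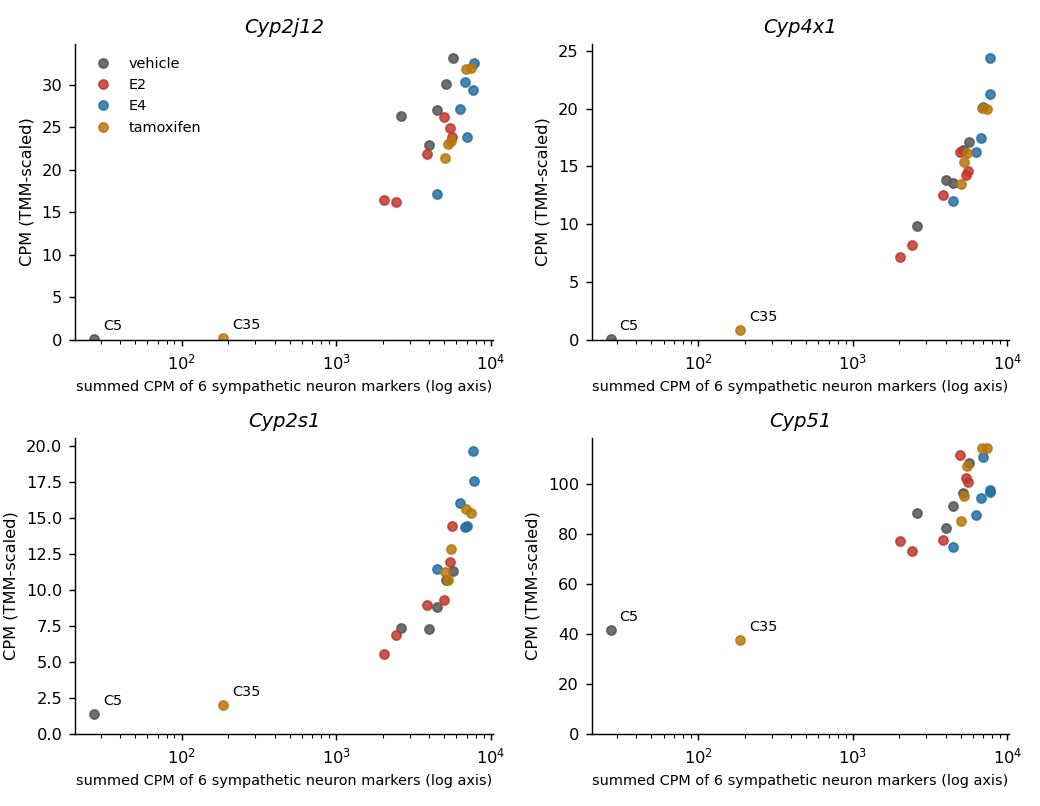
CPM of Cyp2j12, Cyp4x1, Cyp2s1 and Cyp51 against the summed CPM of 6 sympathetic neuron markers on a log axis, 1 point per library, coloured by treatment. Vehicle C5 and tamoxifen C35 lie far to the left and have the lowest level of each gene.

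Smooth muscle markers summed to 2214 to 7911 CPM and endothelial markers to 446 to 1036 CPM over the 24 libraries, so both cell types of the labelled tissue were present, beside fibroblast, adipocyte and neuron markers. In E4 C38 the parathyroid markers summed to 2973 CPM, against at most 111 CPM in the other libraries, and in E2 C9 the T cell markers to 180 CPM, against at most 27.9 CPM. Without vehicle C5, E2 C9 and E4 C38, the call of Cyp2f2 for E4 against E2 was lost (log2 fold change 1.01, edgeR adjusted p = 0.0586), as was that of Cyp1a1 for E2 against vehicle (1.91, edgeR adjusted p = 0.0644).

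Partners and regulators of P450 enzymes were read from gene lists, whose counts stand beside the share of all genes that passed at any fold change against vehicle, 3.88% with E2, 21.7% with E4 and 2.23% with tamoxifen. Of 12 tested electron transfer partners, 3 passed with E4 against vehicle, 0 with E2 and 2 with tamoxifen, none by more than 1 on the log2 scale. The E4 count is near the 21.7% of all genes. Por, which encodes the reductase that supplies microsomal P450 enzymes, was at 82.6 to 128 CPM with vehicle (median 90.7), 94.5 to 139 CPM with E2 (median 113) and 131 to 158 CPM with E4 (median 138). The E4 and vehicle libraries did not overlap, and the log2 fold change was 0.57 (SE 0.11, edgeR adjusted p = 0.003), or 0.55 and 0.61 within the number series (edgeR adjusted p = 0.0709 and 0.0928). Tamoxifen libraries, at 93.2 to 148 CPM (median 127), overlapped those of vehicle, with a difference of 0.35 that did not pass (SE 0.12, edgeR adjusted p = 0.0995). Cyb5a and Cyb5r3 were named after their values were seen. Cyb5a, cytochrome b5, fell by 0.42 with E4 (SE 0.10, edgeR adjusted p = 0.00777) and by 0.35 with tamoxifen (SE 0.09, edgeR adjusted p = 0.0496). Cyb5r3, its reductase, rose by 0.47 with E4 (SE 0.10, edgeR adjusted p = 0.00551) and by 0.38 with tamoxifen (SE 0.10, edgeR adjusted p = 0.0402). The tamoxifen results of both were lost in 18 and 11 of 24 fits that each left out 1 library (edgeR adjusted p up to 0.149 and 0.119). Within the number series the E4 difference of Cyb5a was -0.53 and -0.22 (edgeR adjusted p = 0.0579 and 0.29). That of Cyb5r3 was 0.48 and 0.47 (edgeR adjusted p = 0.0839 and 0.0881).

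Of 9 tested genes of the AhR pathway, Tiparp, a target gene and repressor of the receptor, passed as higher with E2 against vehicle, where 3.88% of all genes passed, and 0 passed with E4 or tamoxifen against vehicle, where 21.7% and 2.23% did. Tiparp was at 37.6 to 64.8 CPM with vehicle (median 48.7), 56.5 to 95.3 CPM with E2 (median 68.3), 41.1 to 63.5 CPM with E4 (median 52.5) and 35.01 to 48.3 CPM with tamoxifen (median 45.1). Its rise with E2 was 0.52 (SE 0.14, edgeR adjusted p = 0.0423), a result lost without vehicle C2, C3, C4, C24 or C25, E2 C6, C8 or C9, or E4 C16, C19, C20 or C38 (edgeR adjusted p up to 0.111), and tamoxifen was lower than E2 by -0.70 (SE 0.13, edgeR adjusted p = 0.00182). Within the number series the rise with E2 was 0.73 and 0.25 (edgeR adjusted p = 0.117 and 0.527) and the difference of tamoxifen from E2 was -1.04 and -0.32 (edgeR adjusted p = 0.0123 and 0.391). The receptor itself, Ahr, was at 13.6 to 34.4 CPM over all libraries and its repressor Ahrr at 1.09 to 4.58 CPM, and both passed in no comparison. Cyp1a1 and Cyp2s1, P450 genes linked to this receptor, are given above.

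Of 16 tested nuclear receptors of xenobiotics and lipids, 2 passed with E2 against vehicle, both lower, and 3 with E4, 2 higher and 1 lower, where 3.88% and 21.7% of all genes passed, so that the E4 count is near the share of all genes. Nr5a2, a receptor that acts on bile acid and steroid P450 genes, was at 0.890 to 2.19 CPM with vehicle and 0.5005 to 0.797 CPM with E2, without overlap, a log2 fold change of -1.18 (SE 0.29, edgeR adjusted p = 0.0271), lost without vehicle C25 or E2 C6, C9, C26 or C29 (edgeR adjusted p up to 0.0724). It was higher with tamoxifen than with E2 by 1.09 (SE 0.27, edgeR adjusted p = 0.0176). Within the number series the E2 difference from vehicle was -1.15 and -1.31 (edgeR adjusted p = 0.234 and 0.26). That of tamoxifen from E2 was 0.93 and 1.22 (edgeR adjusted p = 0.103 and 0.273). Without vehicle C5, E2 C9 and E4 C38 the E2 difference was -1.06 (edgeR adjusted p = 0.0775). The E4 call of Vdr, the vitamin D receptor, with 2.16 (SE 0.66, edgeR adjusted p = 0.0276), rested on E4 C38, at 32.4 CPM against at most 2.25 CPM in the other 5 E4 libraries, and without it the difference was 0.41 (edgeR adjusted p = 0.166). The call was also lost without vehicle C3 (edgeR adjusted p = 0.0656).

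Of 11 genes of heme synthesis and breakdown, 1 passed with E2 (higher), 2 with E4 (1 higher and 1 lower) and 1 with tamoxifen (lower) against vehicle, where 3.88%, 21.7% and 2.23% of all genes did. Alas2, the first heme synthesis enzyme of red cell precursors, was the one that passed with tamoxifen. It was at 27.4 to 211 CPM with vehicle, 34.5 to 164 CPM with E2, 36.9 to 69.2 CPM with E4 and 15.3 to 43.5 CPM with tamoxifen. Tamoxifen was lower than vehicle by -1.85 (SE 0.41, edgeR adjusted p = 0.0249) and than E2 by -2.04 (SE 0.42, edgeR adjusted p = 0.00347), though its range overlapped both, and the difference from vehicle was lost without vehicle C3 or tamoxifen C11, C13 or C33 (edgeR adjusted p up to 0.0998). Of 9 genes of sterol regulation, which act on Cyp51, 1 passed with E2 (lower), 3 with E4 (2 higher and 1 lower) and 2 with tamoxifen (1 higher and 1 lower) against vehicle, beside the same shares of all genes. The median log2 fold change of the list was 0.12 with E2, 0.47 with E4 and 0.24 with tamoxifen. That of the 6 sympathetic neuron markers was 0.19, 0.91 and 0.51. The sterol regulation list summed to 854 CPM in vehicle C5 and 778 CPM in tamoxifen C35, both low in these markers, against 1063 to 1777 CPM elsewhere. The part of neurons in the differences of this list was not tested. Srebf2, the transcription factor of cholesterol synthesis genes, rose with E4 by 0.80 (edgeR adjusted p = 0.00637), and Scap, the sterol sensor that escorts it, rose by 0.57 with E4 (edgeR adjusted p = 0.00261) and by 0.42 with tamoxifen (edgeR adjusted p = 0.0392, up to 0.116 in the 9 of 24 fits that each left out 1 library and lost it). Within the number series the E4 rise was 0.95 and 0.59 for Srebf2 (edgeR adjusted p = 0.0563 and 0.0794). For Scap it was 0.63 and 0.49 (edgeR adjusted p = 0.0497 and 0.082). Insig1, which retains that sensor in the endoplasmic reticulum and like both of these was named after its values were seen, was the gene of the list that fell, and was at 205 to 348 CPM with vehicle and at 126 to 191 CPM over all treated libraries. It fell by 0.69 with E2, by 0.88 with E4 and by 0.61 with tamoxifen (edgeR adjusted p = 0.00133, 0.000409 and 0.00784), of which the E4 difference alone also passed within the number series, while Cyp51 itself did not pass.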

How the data were processed

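RNA of 24 carotid arteries was sequenced after a stranded mRNA library preparation, and the submitters' processing notes name bcl2fastq 2.17, Trim Galore, Bowtie2, featureCounts and the builds mm10 and GRCm38. For each library the authors deposited a table of estimated counts, not normalized. The counting options and the strand setting were not given in the sources used here. Values were rounded to whole numbers and matched to GENCODE M21 by Ensembl identifier.

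Tests used edgeR 4.0.16 (R 4.3.3): filterByExpr, TMM factors, quasi-likelihood F tests and, over all genes tested, adjusted p-values after Benjamini and Hochberg. Vehicle, E2 and E4 entered a fit of 18 libraries, and comparisons with tamoxifen a fit of 24. Called genes had an adjusted p under 0.05 and differed by more than 1 on the log2 scale, and SE came from the F statistic. The procedure was tested on simulated data. Labels give each library an animal number and do not describe separate experiments, so p-values measure the spread between these libraries. Floors cover counting error only.

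P450 genes were named if they passed at an adjusted p under 0.05 in any comparison, were among the 10 with the highest CPM per kilobase of exon, or were Cyp1b1, Cyp2f2, Cyp19a1, Cyp51, Cyp7b1, Cyp27a1, Cyp26b1, Cyp4b1 or Cyp2e1. Genes of the partner and regulator lists were named where called, and Por, Ahr, Ahrr and Tiparp always. Nr1i3 and Nr1i2, given beside Cyp2b10, and the genes marked as named after their values were seen are outside this rule. Members and lists were chosen with earlier results of these data known. Promoters were read from RefSeq (GRCm38.p6). Alternatives were DESeq2 1.42.0, its size factors, other filters, the animal-number series, other sets of libraries and the omission of each library.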

Additional observations from a re-analysis of the deposited data

Results flagged for a closer look

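In 121 groups of 6 libraries, 20 had 1 library far from the other 5 by Dixon's test, where chance gives about 1 in 20 (6.0 here). Vehicle C5 was such a library in Cyp27a1 (65.9 CPM, others up to 43.3), Cyp4b1 (21.3 CPM, others up to 14.2), Por (128 CPM, others up to 94.2) and Cyp2j12 (0.0659 CPM, others at least 22.9). Tamoxifen C35 stood apart in Cyp2j12 (0.209 CPM, others at least 21.4), Cyp2s1 (2.00 CPM, others at least 10.7) and Cyp26b1 (20.1 CPM, others up to 11.7). E2 C8 was low in Cyp2j6 (42.1 CPM, others at least 52.2), Cyp2j9 (20.4 CPM, others at least 30.7) and Cyp7b1 (0.945 CPM, others at least 2.27), and high in Cyp4f18 (3.99 CPM, others up to 3.15).

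Further high libraries were E2 C29 and E4 C39 in Cyp26b1 (39.8 and 19.1 CPM, others up to 18.2 and 13.4), E4 C38 in Cyp46a1 (5.49 CPM, others up to 4.56), E4 C19 in Cyp2b10 (5.78 CPM, others up to 2.30) and E4 C36 in Cyp1a1 (1.48 CPM, others up to 0.83). Tamoxifen C12 held the only Cyp19a1 count (0.0223 CPM). Among regulators, Vdr was high in E4 C38 (32.4 CPM, others up to 2.25) and tamoxifen C33 (2.57 CPM, others up to 2.04), and Alas2 in vehicle C3 (210.5 CPM, others up to 93.6).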

How the results depend on the processing

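No paired analysis was possible because the groups share no replicate numbers. Over 51 gene results with an adjusted p under 0.05, 311 of 1560 values under the alternatives no longer passed, 1249 passed in the same direction and 0 reversed. Within the number series, 13 of the 51 passed in the first, 4 in the second and 3 in both. Cyp2b10 and Cyp2f2 with E2 and Insig1 with E4 kept an adjusted p under 0.05 under every alternative run. The 51 results were picked because they passed in these data, and the alternatives refit the same libraries, so the 0 reversals are no independent support. Of 108 differences of named P450 genes that did not pass, 18 passed and 46 changed sign under some alternative. The number of called P450 genes was 4 with E2 against vehicle (2 in the first and 2 in the second number series, 3 to 5 leaving out 1 library), 3 with E4 (0 in the second series, 3 to 6, with 5 without vehicle C2 and 6 without E4 C39) and 1 with tamoxifen (2 by DESeq2, 0 in either series, 1 to 1). For E4 against E2 it was 3 (1 and 0 in the series, 2 to 4), for tamoxifen against E2 4 (2 and 0, 4 to 5), and for tamoxifen against E4 0 under every alternative run. At any fold change, the number with E2 was 5 (9 by DESeq2, 3 and 2 in the series, 9 without the libraries low in neuron markers, 4 to 9, with 9 without vehicle C5), with E4 6 (3 and 0 in the series, 3 to 9, with 3 without vehicle C3 or E4 C19, C20 or C36) and with tamoxifen 2 (0 in either series, 1 with only the 2 groups in the fit, 1 to 2, with 1 without vehicle C3 or tamoxifen C33). For E4 against E2 it was 5 (9 by DESeq2, 1 and 0 in the series, 12 without the libraries low in neuron markers, 3 without the 4 libraries that stood apart in marker lists, 11 with only the 2 groups in the fit, 3 to 12, with 12 without vehicle C5, 8 without E2 C29 and 3 without E2 C6, C8 or C9 or E4 C38). For tamoxifen against E2 it was 6 (2 and 0 in the series, 4 to 7). The share of all genes that passed moved in the same fits. With E2 it was 3.88% as designed, 5.92% by DESeq2, 0.759% and 0.946% in the series and 5.21% without vehicle C5. With E4 it was 21.7% as designed and 2.63% and 0.503% in the series. It was 12.3% without vehicle C3, and 14.3%, 12.6% and 16.5% without E4 C19, C20 and C36. With tamoxifen it was 2.23% as designed and 0.00393% and 0% in the series. For E4 against E2 the share of all genes was 10.9% as designed, 16% by DESeq2 and 4.48% and 0% in the series. It was 22% with only the 2 groups, 21.5% without vehicle C5, 16.2% without E2 C29 and 7.15% without the 4 libraries. Without E2 C6, C8 or C9 or E4 C38 it was 5.81%, 4.54%, 5.53% and 7.49%. For tamoxifen against E2 it was 6.4% as designed and 4.51% and 0.451% in the series. The series hold 2 to 4 libraries a group, and for other changes the cause was not tested. Among all genes, those called with E2 numbered 302 as designed and 141 and 171 in the series. With E4 they numbered 616 as designed, 80 in the second series, 776 without vehicle C2 and 641 without E4 C39. With tamoxifen they numbered 79 as designed, 111 by DESeq2 and 1 and 0 in the series. The fit without 4 libraries was chosen after seeing the data. The E2 and E4 comparisons hold no tamoxifen library, so leaving out the libraries low in neuron markers removes vehicle C5 alone there. Low counts limit Cyp1a1 and Cyp8b1, with 6 counts in their lowest library.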
